A study of Homo sapiens with 6 samples.

Results

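miR-22 was followed through the miRNA sequencing of Huh7 cells, a human hepatoma cell line, by taking the rows of the expression table named hsa-miR-22-3p and hsa-miR-22-5p, which are the products of the 3′ and the 5′ arm of a single hairpin precursor. These are 2 of the 2588 mature miRNAs in the table. In 3 samples, the overexpression group, the cells had been transfected by lipofection with a plasmid carrying hsa_circ_0098181, and in the other 3, the control group, with the control plasmid. RNA was taken 48 h after transfection in all of them. The transfection was transient, the cells were of a single line, and the labels do not say whether the samples of a group came from separate cultures, so that the p-values measure the spread between these samples, which may be technical. The study asks which miRNAs are held by hsa_circ_0098181, a circular RNA of the gene SOX5, and it follows a path to the nuclear receptor gene PPARA.

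A miRNA guides Argonaute proteins to mRNAs that pair with its seed, which is the stretch of bases 2 to 8 from its 5′ end, and lowers the translation and stability of those mRNAs. Of the arms of a hairpin, the guide arm is usually kept in Argonaute, and the passenger arm is mostly degraded. miR-22 is abundant in liver and heart, has been described as a restraint on the growth of liver cancer cells through the histone deacetylase HDAC4, and has been described in cartilage as acting on PPARA. PPARA encodes a receptor for fatty acids that turns on the genes of fatty acid oxidation.

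The mature sequences, from RefSeq (GRCh38.p14), are shown 5′ to 3′ with the seed in capitals, because the seed sets which mRNAs each arm can pair with.
hsa-miR-22-3p: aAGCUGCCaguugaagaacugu
hsa-miR-22-5p: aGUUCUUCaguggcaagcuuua
Both have 22 bases. hsa-miR-22-3p lies on the minus strand at chr17:1713914-1713935 and hsa-miR-22-5p at chr17:1713952-1713973, and each name had 1 locus in the RefSeq table. None of the other mature miRNAs among the 2370 names in that table shared either 7-base seed (0 for each arm). Over bases 2 to 7, hsa-miR-22-3p matched 0 others and hsa-miR-22-5p matched 1, hsa-miR-2116-5p. The reverse complement of the hsa-miR-22-5p seed was found in hsa-miR-22-3p at bases 13 to 19, where the arms face each other in the hairpin. The precursor MIR22 (ENSG00000283824.1) spans chr17:1713903-1713987 on the minus strand in GENCODE release 29 (GRCh38). It is shown as DNA letters with both mature arms in capitals, hsa-miR-22-5p first.
MIR22: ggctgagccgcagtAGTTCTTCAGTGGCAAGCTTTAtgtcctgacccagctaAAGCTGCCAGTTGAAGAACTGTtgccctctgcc
Of its 85 bases, hsa-miR-22-5p takes positions 15 to 36 and hsa-miR-22-3p positions 53 to 74, with 16 bases between them. The precursor is exonic: it lies whole within an exon in 19 of the 19 annotated transcripts of its non-coding host gene MIR22HG (ENSG00000186594.14, chr17:1711493-1717174).

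PPARA was searched for sites of both arms, because miR-22 has been described as acting on it. In the transcript PPARA-201 (GENCODE release 29, 9965 bases, plus strand of chromosome 22), the 7-base complement of the hsa-miR-22-3p seed, GGCAGCT, occurred 3 times, read on the transcript strand. Of these, 2 were in the 3′UTR of 8376 bases and 1 was before the stop codon, and all of them were in exon 8. Each is shown on the plus strand with the seed match in capitals.
PPARA before the stop codon, chr22:46235259-46235281: aaatggcagacctccGGCAGCTg
PPARA 3′UTR, 1217 bases after the stop codon, chr22:46236582-46236604: ctccgggccccatttGGCAGCTc
PPARA 3′UTR, 4823 bases after the stop codon, chr22:46240188-46240210: gatgccatggctctgGGCAGCTt
Neither site in the 3′UTR was followed by an A (0 of 2). Among 209 3′UTRs of other genes with a length within 10% of that of PPARA, 44.0% held GGCAGCT at least once and 16.3% held it at least as often as PPARA did. The complement of the hsa-miR-22-5p seed, GAAGAAC, was found 1 time in PPARA-201, in exon 6 before the stop codon, and 0 times in its 3′UTR, and 45.5% of the same 209 3′UTRs held it. In a linear transcript of SOX5, the host gene of hsa_circ_0098181, of 3991 bases (ENST00000381381.6), GGCAGCT occurred 1 time and GAAGAAC 0 times. The circular RNA itself was not searched. These matches are letters in a transcript, and binding was not measured here.

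The libraries held 7144798 to 10786295 counts, and 1366 miRNAs were counted in at least 1 sample. The hepatocyte marker hsa-miR-122-5p had the highest mean level of all detected miRNAs, and the summed level of 3 hepatocyte markers was 366024 to 383951 TPM under overexpression and 346700 to 372454 TPM in the controls. The sum of 5 blood markers was 13.3 to 14.3 TPM under overexpression and 17.0 to 19.1 TPM in the controls, and 0 of these 5 were at 0 in all samples. hsa-miR-142-3p made up most of this sum (9.23 against 14.1 TPM, log2 fold change -0.50, adjusted p = 0.314 in edgeR). Without control replicate 3, its log2 fold change was -0.57 with an adjusted p of 0.0182 in edgeR, where 56 of 565 miRNAs were called. The other 2 of the 3 tested blood markers had positive values, 0.45 for hsa-miR-223-3p and 0.46 for hsa-miR-150-5p. Both untested ones had few counts. hsa-miR-142-5p, the other arm of hsa-miR-142-3p, had 0.445 TPM under overexpression against 0.216 TPM in the controls. For hsa-miR-451a, these were 0.607 and 0.781 TPM. The sum of 5 markers of stroma and endothelium was 3278 to 3356 TPM and 3159 to 3264 TPM, of which hsa-miR-126-3p made up nearly all. Its log2 fold change was 0.16, the other 3 of the 4 tested had negative values, and the median of the 4 was -0.16, while hsa-miR-214-3p had 3 counts over all samples. The blood sums and the stroma sums did not overlap between the groups, and neither did the TPM of 101 of 552 single miRNAs (18.3%). Control replicate 3 stood apart, with a median absolute log2 difference from the other controls of 0.24 and 0.21 over 295 abundant miRNAs, against 0.075 between control replicates 1 and 2. Its difference from overexpression replicates 1, 2 and 3 was 0.15, 0.22 and 0.19. Control replicate 3 was thus nearer to overexpression replicates 1 and 3 than to either other control. The fits of both arms, of their ratio and of the PPARA list below are therefore also given without it. The samples were bulk RNA of a single cell line, so these marker sums are not a measure of cell types. Where the reads of the blood and stroma markers came from was not tested.

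hsa-miR-22-3p, the guide arm by its abundance, was an upper-range miRNA of these cells and differed little between the groups. The reads assigned to it numbered 18112, 16662 and 13932 in the controls (replicates 1 to 3) and 13726, 12633 and 13808 under overexpression. Expressed as TPM, which here scales the count by the total of the sample and makes no correction for length, the controls had 1679, 1920 and 1950 and the overexpression replicates had 1720, 1492 and 1666. Control replicates 2 and 3 were above every overexpression sample, but control replicate 1 fell below overexpression replicate 1, so that the groups overlapped. The mean was 1850 ± 148 TPM (SD, n = 3) in the controls and 1626 ± 119 TPM (SD, n = 3) under overexpression. Without control replicate 3, the mean of the controls was 1800 TPM. The overlap rested on control replicate 1 and overexpression replicate 1. Without the former, the ranges did not overlap (1626 TPM under overexpression against 1935 TPM in the controls). Without the latter they did not overlap either (1579 against 1850 TPM). The share of all miRNAs separated in this way without a sample is not given here. The difference of -224 TPM over all samples was not distinguished from the spread between samples by a two-sided exact permutation test (p = 0.2), which with groups of 3 can reach no p under 0.1.

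Part of this difference in TPM went with the scaling. TMM factors, which correct each library for the composition of its counts, were 0.921 to 0.996 under overexpression and 1.00 to 1.09 in the controls. Scaled by these factors, hsa-miR-22-3p averaged 1775 ± 96.1 CPM (SD, n = 3) in the controls and 1690 ± 60.2 CPM (SD, n = 3) under overexpression (two-sided exact permutation test, p = 0.3). edgeR's quasi-likelihood test put the log2 fold change at -0.071 with a standard error of 0.084, a 95% interval of -0.25 to 0.11 and an adjusted p of 0.772. As a percentage this is a change of -4.80%, with an interval from -16.0% to 7.90%. Without control replicate 3, the log2 fold change was -0.083 (95% confidence interval -0.23 to 0.061, adjusted p = 0.544 from edgeR). With the library size alone it was -0.19 (adjusted p = 0.431 from edgeR), but the median of all miRNAs was then -0.11, and relative to that median it was -0.074.

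hsa-miR-22-5p, the other arm, had 1418, 1234 and 1185 reads in the controls (replicates 1 to 3) and 1085, 1081 and 1209 under overexpression. As TPM, these were 131, 142 and 166 in the controls and 136, 128 and 146 under overexpression. Control replicate 3 was the highest, and leaving it out brought the mean of the controls to 137 TPM against 136 TPM under overexpression. With all samples, the controls averaged 147 ± 17.6 TPM (SD, n = 3) and the overexpression samples 136 ± 9.12 TPM (SD, n = 3), with p = 0.5 in the two-sided exact permutation test. Scaled by TMM, the controls averaged 140 ± 11.0 CPM (SD, n = 3) and the overexpression samples 142 ± 7.72 CPM (SD, n = 3), with p = 0.9 in the same exact test. By edgeR, its log2 fold change was 0.017 with a standard error of 0.11, a 95% interval of -0.22 to 0.25 and an adjusted p of 0.946. The sign of so small a value was not stable: it was 0.061 without control replicate 3 and -0.10 with the library size alone, where it lay 0.011 above the median of the tested miRNAs.

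**Figure D1:**
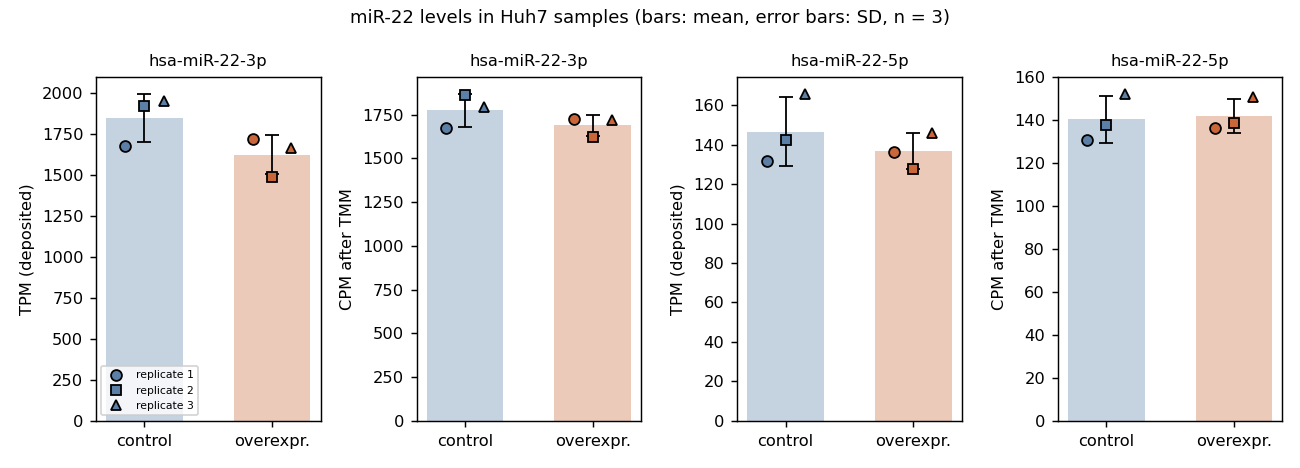
Level of hsa-miR-22-3p (left pair of panels) and hsa-miR-22-5p (right pair) in TPM as deposited and in CPM after TMM, by group. Bars are means, error bars are SD (n = 3), and the symbols are replicates 1 to 3. The groups overlap in every panel, and the gap between the means of hsa-miR-22-3p is narrower after TMM (1690 against 1775 CPM) than in TPM (1626 against 1850).

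Neither arm was called (0 of 2) at an adjusted p under 0.05, where edgeR called 0 of the 552 miRNAs tested (0%) and DESeq2 and limma also called 0. Leaving out control replicate 3 gave 56 calls among 565 miRNAs in edgeR, with neither arm among them (adjusted p = 0.544 and 0.774). Over the 6 samples, 0 of the 2 arms and 50 of 552 miRNAs (9.06%) had an unadjusted p of less than 0.05 in edgeR. The TPM ranges of the groups did not overlap for 0 of the 2 arms and for 101 of 552 miRNAs (18.3%). By the size of the change, 429 of 552 miRNAs had a larger absolute log2 fold change than hsa-miR-22-3p and 526 had a larger one than hsa-miR-22-5p, with a median of 0.15 over all miRNAs tested.

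The spread of both arms between samples was wider than counting error alone. A count of the size of that of hsa-miR-22-3p has a Poisson coefficient of variation of 0.743% to 0.890%, while its TPM varied by 7.35% under overexpression and 8.03% in the controls. For hsa-miR-22-5p, the Poisson value was 2.66% to 3.04%, against 6.68% and 12.0% between the samples of each group. These Poisson values cover counting error only and treat each read as a separate molecule. The spread was smaller after TMM. The SD of hsa-miR-22-3p was then 60.2 CPM under overexpression and 96.1 CPM in the controls, against 119 and 148 in TPM. For hsa-miR-22-5p it was 7.72 and 11.0 CPM, against 9.12 and 17.6 in TPM.

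**Figure D2:**
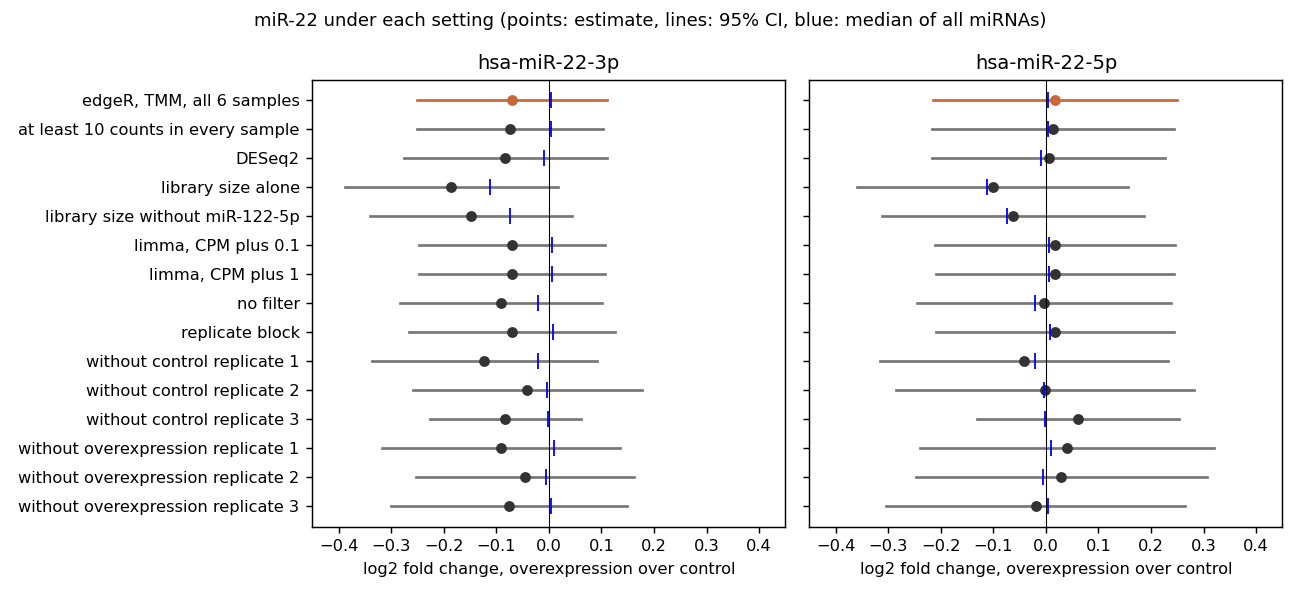
Log2 fold change of each arm (points) with its 95% confidence interval (lines) under each setting, with the median of all tested miRNAs as a blue tick. hsa-miR-22-3p lies below 0 in every setting shown, from -0.19 to -0.041, hsa-miR-22-5p lies on both sides of 0, from -0.10 to 0.061, and every interval contains 0.

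In the order of levels, hsa-miR-22-3p was at position 47 of the 1366 detected miRNAs by its mean over the 6 samples, 1738 ± 172 TPM (SD, n = 6), and took 0.173% of all counts. hsa-miR-22-5p was at position 137, with 142 ± 13.7 TPM (SD, n = 6). The neighbours of hsa-miR-22-3p were hsa-miR-590-3p (1794 ± 299 TPM) and hsa-miR-15a-5p (1770 ± 181 TPM) above it and hsa-miR-101-3p (1730 ± 235 TPM) and hsa-miR-151a-3p (1688 ± 97.3 TPM) below it (SD, n = 6 each). hsa-miR-15a-5p belongs to the miR-15/16 family, which acts on cell cycle genes, and hsa-miR-101-3p acts on the histone methyltransferase gene EZH2. The ranges of all these neighbours overlapped that of hsa-miR-22-3p, so that its place among them was not resolved. hsa-miR-101-3p, for instance, was above hsa-miR-22-3p in 5 of 6 samples although its mean was lower. For hsa-miR-22-5p, the neighbours hsa-miR-331-3p (146 TPM), hsa-miR-25-5p (145 TPM), hsa-miR-561-5p (137 TPM) and hsa-miR-362-5p (132 TPM) also overlapped it in range, but hsa-miR-362-5p was below it in every sample (above it in 0 of 6). Since a read covers a whole mature miRNA, no length correction was made between miRNAs, and differences in ligation and amplification between sequences are part of these levels.

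**Figure D3:**
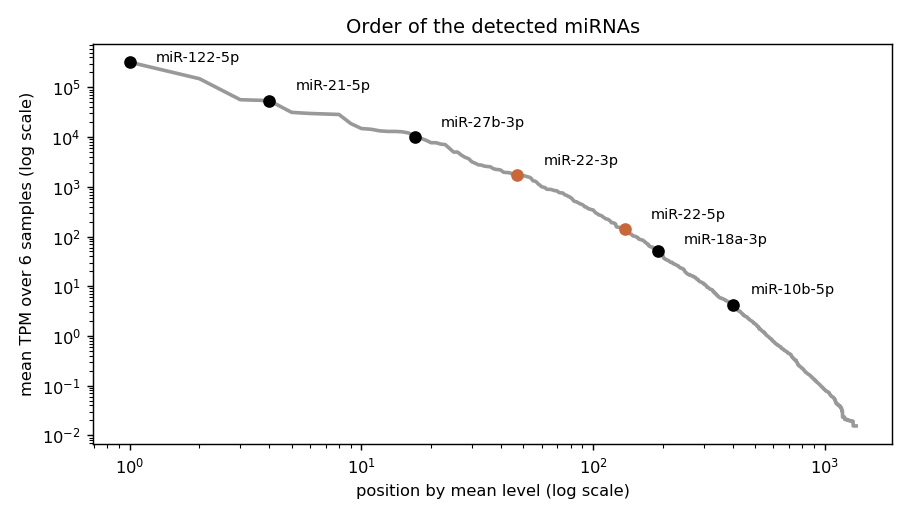
Mean TPM over the 6 samples against the position in the order of levels for the 1366 detected miRNAs, both on log scales. hsa-miR-22-3p (position 47) and hsa-miR-22-5p (position 137), in orange, lie between hsa-miR-27b-3p (position 17) and hsa-miR-18a-3p (position 190).

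The arms of the hairpin kept nearly the same proportion in all samples. The 3p arm held 92.7%, 93.1% and 92.2% of the miR-22 reads in the controls (replicates 1 to 3) and 92.7%, 92.1% and 91.9% under overexpression. The exact (Clopper-Pearson) 95% binomial intervals were between 91.5% and 93.5% in all samples, and they cover counting error only. As a ratio, hsa-miR-22-3p exceeded hsa-miR-22-5p 12.8, 13.5 and 11.8 times in the controls and 12.7, 11.7 and 11.4 times under overexpression. Control replicate 2 was the highest, and overexpression replicate 1 lay above control replicate 3, so that the groups overlapped. This ratio is free of the scaling of the library, and on the log2 scale it averaged 3.66 ± 0.10 (SD, n = 3) in the controls and 3.57 ± 0.077 (SD, n = 3) under overexpression. The difference of -0.088 had a 95% confidence interval from -0.39 to 0.21 (adjusted p = 0.795 from limma, fitted over 135 precursors), and the two-sided exact permutation test gave p = 0.2. Leaving out control replicate 3 moved the difference to -0.14, with an adjusted p of 0.608 in limma. Over the 135 precursors, 0 (0%) had an adjusted p under 0.05 in limma and 18 (13.3%) an unadjusted p under 0.05, and the groups did not overlap for 26 (19.3%). The count of 0 became 5 of 139 without control replicate 3, where miR-22 was not called.

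The 135 precursors are names under which a 3p and a 5p row were both tested. Hairpins with an arm named by locus, such as miR-16 and miR-125b, are left out. A name that is kept, such as miR-181a, can cover several loci. Among the 135, the 3p arm was the more abundant in 55, miR-22 included. The ratio of miR-22, on average 12.3 in the geometric mean, was near the median of 12.9 for the more over the less abundant arm, and 68 precursors (50.4%) were more lopsided. Several liver miRNAs had larger ratios in every sample: 1585 to 1981 for miR-122, which favours its 5p arm, 1714 to 2156 for miR-148a, which favours its 3p arm, 107 to 143 for miR-21 and 83.7 to 97.5 for miR-192. Their ranges did not overlap that of miR-22, 11.4 to 13.5. miR-141 (9.91 to 18.9) overlapped it, and the ratio of miR-18a (13.6 to 23.5, in favour of 5p) began just above it. miR-101, miR-26a and miR-10b were not compared, because an arm of miR-101 and of miR-10b did not pass the filter and the 3p arms of miR-26a are listed by locus. The filter thus leaves out lopsided hairpins such as miR-101 (mean 1730 TPM for 3p and 0.799 TPM for 5p). The 55, the median of 12.9 and the 50.4% hold only for precursors with both arms tested under matching names.

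**Figure D4:**
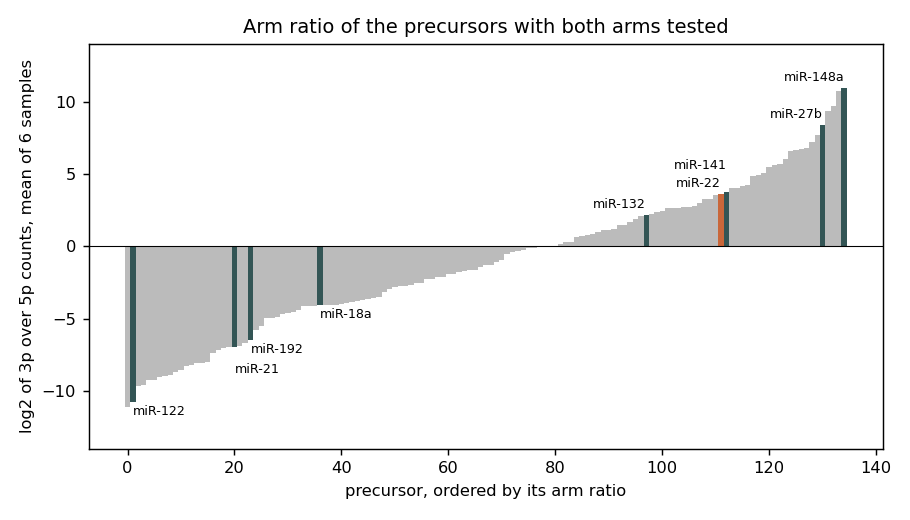
Mean log2 ratio of 3p to 5p counts over the 6 samples for the 135 precursors, in order. Positive bars favour the 3p arm, miR-22 is drawn in orange and the named precursors in dark grey. miR-22 stands beside miR-141 and well below miR-148a.

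The pattern of each arm over the 6 samples was compared with that of every tested miRNA by the root mean square difference of log2 CPM after TMM, each centred on its own mean. hsa-miR-22-3p itself varied by a root mean square of 0.065 around its mean. The nearest miRNAs to it were hsa-miR-2355-5p (0.038), hsa-miR-24-3p (0.039) and hsa-miR-331-3p (0.056), against a median difference of 0.20 over all miRNAs. hsa-miR-22-5p varied by 0.079 around its mean, and the nearest to it were hsa-miR-1255a (0.015), hsa-miR-615-3p (0.035) and hsa-miR-18a-3p (0.035), against a median of 0.21. The arms of miR-22 differed from each other by 0.085, which placed hsa-miR-22-5p in position 20 in likeness to hsa-miR-22-3p. In these centred values, control replicate 2 was the highest sample for hsa-miR-22-3p (0.10) but below the mean for hsa-miR-22-5p (-0.032), whose highest samples were control replicate 3 (0.11) and overexpression replicate 3 (0.097). With 6 samples from a single cell line and so little variation, these lists describe the libraries and not shared control.

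A list of 7 other miRNAs described as acting on PPARA was taken, among them hsa-miR-18a-3p, the miRNA of the study. The list is not complete. hsa-miR-9-5p (mean 123 TPM) and hsa-miR-580-5p (mean 0.538 TPM), which the study's paper also ties to PPARA, are not in it. Of the 7 listed, 5 had enough counts to be tested, and 4 were higher and 1 was lower in the overexpression group after TMM. Scaling by library size alone left 2 above 0 and 3 below it, and 4 of the 5 lay above the median of all miRNAs. Of the 5, 0 passed an adjusted p under 0.05 or an unadjusted one in edgeR, where 0% and 9.06% of all miRNAs did. By the other tools run, DESeq2 and limma, the count at an adjusted p under 0.05 was also 0. Without control replicate 3, 0 of the 5 passed the adjusted and 1 the unadjusted threshold in edgeR, the latter being hsa-miR-21-5p (log2 fold change 0.12, unadjusted p = 0.0296, adjusted p = 0.162), where 21.1% of all miRNAs passed the unadjusted one. Their median log2 fold change was 0.068, against 0.0038 over all miRNAs tested, and with the library size alone it was -0.048, against -0.11. hsa-miR-21-5p, an oncogenic miRNA, had 54488 ± 474 TPM and 54216 ± 3514 TPM (SD, n = 3 each, overexpression first) and a log2 fold change of 0.13 (standard error 0.063). hsa-miR-27b-3p, which acts on several genes of lipid metabolism, had 9932 ± 449 and 10270 ± 357 TPM. Its log2 fold change was 0.068 after TMM and -0.048 with the library size alone. Both were more abundant than hsa-miR-22-3p in every sample, hsa-miR-21-5p by 27.8 to 36.9 times. The others were below hsa-miR-22-3p. hsa-miR-141-3p, a member of the epithelial miR-200 family, had 49.0 ± 2.08 and 54.6 ± 3.30 TPM, and hsa-miR-10b-5p, which lies in the HOXD cluster, had 4.37 ± 0.859 and 4.15 ± 1.29 TPM. hsa-miR-506-3p had a total of 12 and 15 counts, and hsa-miR-519d-3p had 0 counts in every sample, which allows up to 0.278 to 0.420 TPM.

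hsa-miR-18a-3p averaged 52.9 ± 5.68 TPM in the controls and 50.2 ± 2.73 TPM under overexpression (SD, n = 3 each). After TMM the order was the opposite, with 50.7 ± 3.44 CPM in the controls and 52.2 ± 1.89 CPM under overexpression, and edgeR put the log2 fold change at 0.042 (standard error 0.11, adjusted p = 0.887), against -0.074 with the library size alone and 0.079 without control replicate 3. By RT-qPCR, another method, the paper reports a significant fall of hsa-miR-18a-3p in Huh7 and Hep3B cells given hsa_circ_0098181. Its luciferase and Ago2 assays were not examined here. hsa-miR-22-3p was the more abundant by 34.0, 38.5 and 32.8 times in the controls (replicates 1 to 3) and by 33.9, 31.6 and 31.7 times under overexpression. hsa-miR-22-3p made up 2.24% to 2.60% of its sum with the list under overexpression and 2.67% to 2.93% in the controls. These shares did not overlap between the groups, but hsa-miR-21-5p, which makes up most of the sum, is part of them, and the share was not tested. For comparison, the TPM ranges of the groups did not overlap for 101 of 552 single miRNAs (18.3%).

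**Figure D5:**
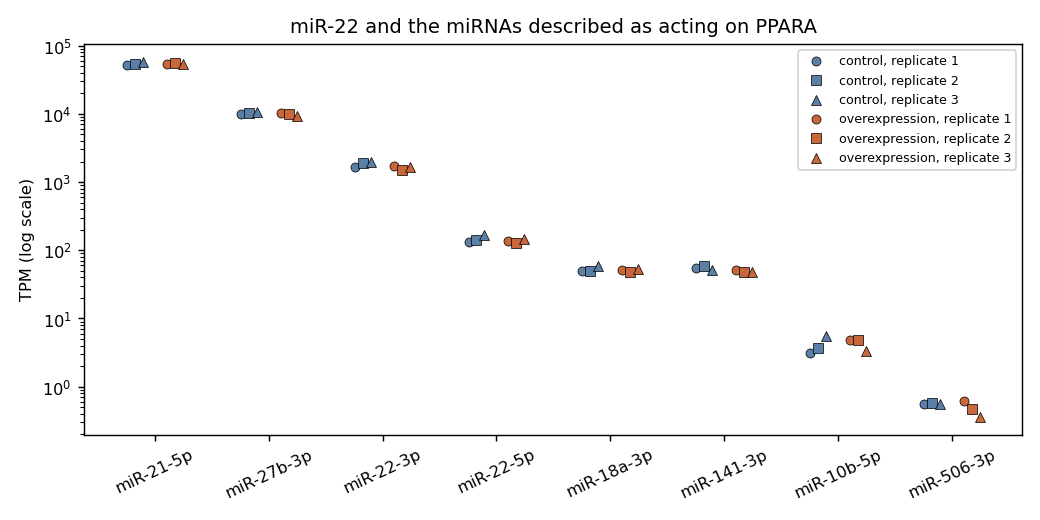
TPM of both miR-22 arms and of the miRNAs of the PPARA list in each sample, on a log scale. Control samples are in blue and overexpression samples in orange, with a symbol for each replicate. hsa-miR-519d-3p, at 0 in every sample, is not drawn. hsa-miR-22-3p lies between hsa-miR-27b-3p and hsa-miR-18a-3p in every sample.

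The genomic neighbours of MIR22 were also read. The nearest other annotated miRNA genes within 500 kb are MIR132 (335920 bases away) and MIR212 (336283 bases away), a pair on the same strand known from neurons. hsa-miR-132-3p had 20.6 ± 2.43 TPM with hsa_circ_0098181 and 17.7 ± 2.00 TPM with the control plasmid (SD, n = 3 each), and its log2 fold change was 0.33 (standard error 0.14, unadjusted p = 0.0282 and adjusted p = 0.421 from edgeR). It was 0.37 without control replicate 3 (adjusted p = 0.0797) and 0.22 with the library size alone (adjusted p = 0.570, both from edgeR). hsa-miR-132-5p was at 4.39 and 4.21 TPM, with a log2 fold change of 0.15 (adjusted p = 0.835 from edgeR). hsa-miR-212-3p (33 counts in all) and hsa-miR-212-5p (18 counts in all) were too low to be tested. All 4 products were far below both arms of miR-22.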

How the data were processed

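The miRNA libraries were made from Huh7 cells, 3 for each plasmid (6 in all), and were grouped by the sample labels. The authors deposited raw counts per mature miRNA and TPM values for each sample; the deposited TPM values equal the count scaled to a fixed total per sample, to within 0.00303. The submitters' processing notes list hg38, TopHat2 2.0.9, TopHat and Bowtie without a role. Trimming, annotation and the treatment of multiply matching reads are not given in the sources used here. The total per sample was 7144798 to 10786295 counts.

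The groups were tested on the counts in edgeR 4.0.16 under R 4.3.3 (filterByExpr with a minimum count of 10 and a minimum total of 15, TMM factors, quasi-likelihood test, two-sided, Benjamini-Hochberg adjustment over the 552 miRNAs tested, threshold 0.05). Arm ratios, with 0.5 added to each count, were fitted with limma 3.58.1 over 135 precursors. Single values were compared by exact permutation tests. DESeq2 1.42.0, limma on log2(CPM + 1) and log2(CPM + 0.1), other scalings and filters, 5 added to each count of the ratio, the replicate number as a block and leaving out each sample were alternatives. The scripts were tested on simulated data.

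The members, lists and tests were chosen with earlier results of these data known. Named were both arms, the PPARA list, hsa-miR-122-5p and 5 liver miRNAs, the nearest neighbours in level (2 above and 2 below), the 3 nearest in pattern (log2 CPM with a prior count of 2), miRNAs that share a seed and miRNA genes within 500 kb. Of the table's names, 2281 had a sequence in RefSeq (GRCh38.p14). Positions are those of GRCh38, the build named by the submitters.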

Additional observations from a re-analysis of the deposited data

How the results depend on the processing

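hsa-miR-22-3p stayed below 0, with an adjusted p above 0.05, in 14 of 14 alternatives, from -0.19 to -0.041 (adjusted p from 0.431 to 0.964 in edgeR, DESeq2 and limma), and from -0.12 to -0.041 with a sample left out. The log2 fold change of hsa-miR-22-5p, 0.017, was -0.10 with the library size alone, -0.062 with the library size without miR-122-5p and -0.0037 without a filter, where the median of all miRNAs was -0.11, -0.075 and -0.021, and from -0.042 to 0.061 with a sample left out, with a negative sign without control replicate 1, control replicate 2 or overexpression replicate 3. Its adjusted p was between 0.774 and 0.999 in edgeR, DESeq2 and limma. The cause of these changes of sign was not tested. The arm ratio difference stayed below 0 in 9 of 9 alternatives, from -0.14 to -0.041, and the PPARA list had 0 calls in 14 of 14. Among the 9, the filter of at least 10 counts in every sample and the replicate block could not move this difference from -0.088. They use the same ratios of miR-22 in balanced groups. The count of called miRNAs, 0, was 3 with the library size alone, 6 without a filter and from 0 to 56 with a sample left out, where the 56 came without control replicate 3. The count of called precursors, 0, was from 0 to 5 with a sample left out (5 without control replicate 3) and 8 with the replicate block.

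Samples that share a replicate number were not taken as pairs, since their deviations from the group means, over 295 miRNAs, correlated at -0.20, 0.19 and 0.15. The replicate block gave a log2 fold change of -0.070 for hsa-miR-22-3p and 0.018 for hsa-miR-22-5p, and the count of called miRNAs and that of the PPARA list were 0. The arm ratio difference was -0.088, which a balanced block cannot change. The number of samples limits what can be seen. In edgeR with TMM, filterByExpr and no block, the interval of hsa-miR-22-3p allows changes from -16.0% to 7.90%. That of hsa-miR-22-5p allows changes from -13.9% to 18.9%. Over all fits on the 6 samples they reach from -23.6% (library size alone) to 18.9%.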
